A study of Rattus norvegicus with 44 samples.

Results

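The genes that encode collagens and laminins were followed in rat choroid plexus, the tissue of the brain ventricles that makes cerebrospinal fluid. Blood of the trunk was the other tissue. All array probes whose annotated symbol was Col, a number, a and a number, or Lama, Lamb or Lamc with a digit, were taken. This gave 50 probes for 34 genes, 27 collagens and 7 laminins, of the 10412 genes and 14055 probes measured. The brightest probe stood for each gene, and 14 of the genes had several probes. Of the 34 genes, 31 had a value in all 20 choroid plexus pools and 19 on all 44 arrays.

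The rats were male Sprague-Dawley rats (NCTR strain) aged 3 months. They had received saline, had been exposed to environmentally induced hyperthermia (EIH), or had been given amphetamine at doses labelled as toxic (AMPH). Choroid plexus was arrayed as pools of 3 rats, with 4 pools each for saline at 3 h, EIH at 3 h, AMPH at 3 h, EIH at 1 day and AMPH at 1 day after exposure. Blood was arrayed from single rats, with 4 rats each for saline, EIH and AMPH at 3 h and at 1 day. The labels give no dose and no temperature.

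Collagen chains wind into triple helices. Fibrillar collagens bear tension in connective tissue, collagen IV forms the network of basement membranes, and other families coat fibrils, form fine filaments or span the cell membrane. Laminins are cross-shaped trimers of an alpha, a beta and a gamma chain and form the second network of basement membranes, to which epithelia and vessels attach through integrins and dystroglycan. In choroid plexus a basement membrane lies under the secretory epithelium, and the core of each villus holds fibroblasts, fibrillar collagen and fenestrated capillaries.

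Some arrays and labels call for care. Titles and labels disagree for EIH at 1 day: the pools bear the word control in their titles but EIH in the fields for source and treatment, and the latter was followed. By the titles, 5 rat numbers recur over 7 choroid plexus pools, and 17 blood rats share a number with a pool. Some numbers recur between pools of different time or treatment, among them saline pool 4 and AMPH 1 day pool 2. Others recur within EIH at 1 day, where every pool but pool 1 shares a number with another pool of the group. It is therefore unclear whether pools share animals or numbers were reused. Since choroid plexus of saline rats at 1 day was not analysed here, the only reference for 1 day is saline at 3 h. Time, treatment and the scaling of the 1 day arrays cannot be told apart in those comparisons. AMPH 1 day pool 2 correlated with the other pools at 0.804 to 0.898 over all genes and saline pool 4 at 0.804 to 0.924, against 0.926 to 0.978 among the rest. The tissue labels held up for choroid plexus, where 12 of 13 tested epithelial markers were higher than in blood and none was lower, and for blood, where all 5 erythroid and all 4 platelet markers tested were higher than in choroid plexus. A tag on the blood arrays names the striatum, although trunk blood is what the protocol collects.

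The first comparison set resting choroid plexus against resting blood. Of the 33 members tested between the saline groups of 3 h, 16 were higher in choroid plexus and 2 were lower at a Benjamini-Hochberg adjusted p under 0.05 in limma. Over all 9925 genes tested, 31.9% were called higher and 24.3% lower, 56.2% in all. The 2 lower members were Lamb3 and Col1a1, and for Col1a1 another probe gave the opposite direction. The groups did not overlap for 16 members in the higher direction and 3 in the lower, against 32.2% and 24.4% of all genes. The median difference was 0.74 log2 over the members and 0.15 over all genes. Fewer cells of a type and less RNA per cell cannot be told apart in such tissue RNA. The stroma and meninges markers, as a mean log2 level of 10 genes, lay at 10.6 to 11.1 in the saline pools. In saline blood the mean over those with a value was 6.84 to 8.35. Of the 9 tested singly, 6 were higher in choroid plexus and 2 lower, Bgn (12.06 against 13.23) and Serping1 (8.15 against 11.86). The part of stroma in the member differences was not tested.

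Laminin chains showed some of the widest gaps. Lama2, the alpha chain of laminin in muscle and in the basement membranes of brain vessels, read 12.08, 12.15, 12.36 and 12.62 log2 in the saline pools and 5.33, 5.17, 4.76 and 4.21 in blood. The groups were far apart, with a difference of 7.43 ± 0.27 log2 (SE, n = 4 and 4, limma adjusted p = 3.65e-07). Lamb2, a beta chain that pairs with Lama2 and Lama5, differed by 5.96 ± 0.25 and varied over the saline pools only from 11.42 to 11.60. Lama5, the widespread epithelial and endothelial alpha chain, differed by 5.54 ± 0.35. Lamc1, the common gamma chain, was also called higher, by 1.46 ± 0.33, although only 2 blood arrays gave it a value. Lamb3, a chain of the epithelial laminin that anchors skin, was lower in choroid plexus by 1.29 log2 (fitted difference -1.29 ± 0.34, adjusted p = 0.0129). Lama1 and Lamc3 were dim in both tissues and did not pass, with differences of 0.47 ± 0.46 and 0.16 ± 0.41.

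Among fibrillar collagens, 5 of 9 were called higher and 1 lower, the latter being Col1a1, whose probes disagreed in direction. Col1a2, a chain of the main fibrillar collagen, read 12.50, 11.76, 12.64 and 12.24 in the saline pools and 8.74, 9.15, 8.75 and 8.17 in blood, a difference of 3.58 ± 0.27 (adjusted p = 1.22e-05). Col3a1, the collagen of soft and vascular tissue, differed by 3.12 ± 0.23. Its companions Col5a2 and Col5a1, which set fibril width, differed by 4.86 ± 0.54 and 2.69 ± 0.77, and Col27a1 by 2.49 ± 0.19. Of the collagens that associate with fibrils, Col9a3 differed by 6.06 ± 0.17 and Col16a1 by 4.28 ± 0.33. Col8a1, a short-chain collagen of sheet-like lattices in vessel and corneal membranes, read 12.04 to 12.49 in the pools and differed by 6.73 ± 0.86, with 3 blood values. Col8a2 differed by 0.74 ± 0.18.

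Basement membrane collagen IV and filament-forming collagen VI were represented in part. Col4a5 and Col4a4 were higher in choroid plexus by 3.24 ± 0.30 and 2.39 ± 0.38, whereas Col4a2, a chain of the ubiquitous collagen IV trimer, differed by -0.20 ± 0.47 and did not pass. Col6a1 differed by 3.47 ± 0.16 (adjusted p = 1.07e-06), but Col6a2 by -0.32 ± 0.25 (adjusted p = 0.319). Of the collagens that release anti-angiogenic fragments, Col15a1 differed by -0.53 ± 0.21, with no overlap between the groups but an adjusted p of 0.0618, and Col18a1 by -1.08 ± 0.64 (adjusted p = 0.190).

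For Col1a1, the other chain of the main fibrillar collagen, the direction depended on the probe. The brightest probe read 8.94 ± 0.28 (SD, n = 4) in the saline pools and 11.26 ± 0.30 in blood, a difference of -2.32 ± 0.21 (SE, adjusted p = 3.23e-05). Another probe also gave a lower level in choroid plexus, by -0.79 ± 0.22, but the remaining probe gave a higher one, by 2.54 ± 0.27 (limma adjusted p over all probes = 8.71e-05). The mean over the probes differed by -0.19 and was not called. The Col18a1 probes were split in the same way, since the dimmer probe was higher in choroid plexus by 2.51 ± 0.18 (limma adjusted p over all probes = 2.44e-05). No direction between the tissues can therefore be given for either gene. Other probes also differed in size: the dimmer Col1a2 probe gave 0.39 ± 0.23 (limma adjusted p over all probes = 0.187), 1 of the 3 Lama5 probes gave 0.96 ± 0.41 (0.0905), and the dimmer Lamc1 and Col4a5 probes gave 0.60 and 1.27 without passing. For Col23a1 the dimmer probe passed, at 2.82 ± 0.35, where the brightest gave 0.43 and did not. Lamc1 lost the call with the mean over its probes (adjusted p = 0.109), and Col5a1 when saline pool 1 was left out.

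**Figure D1:**
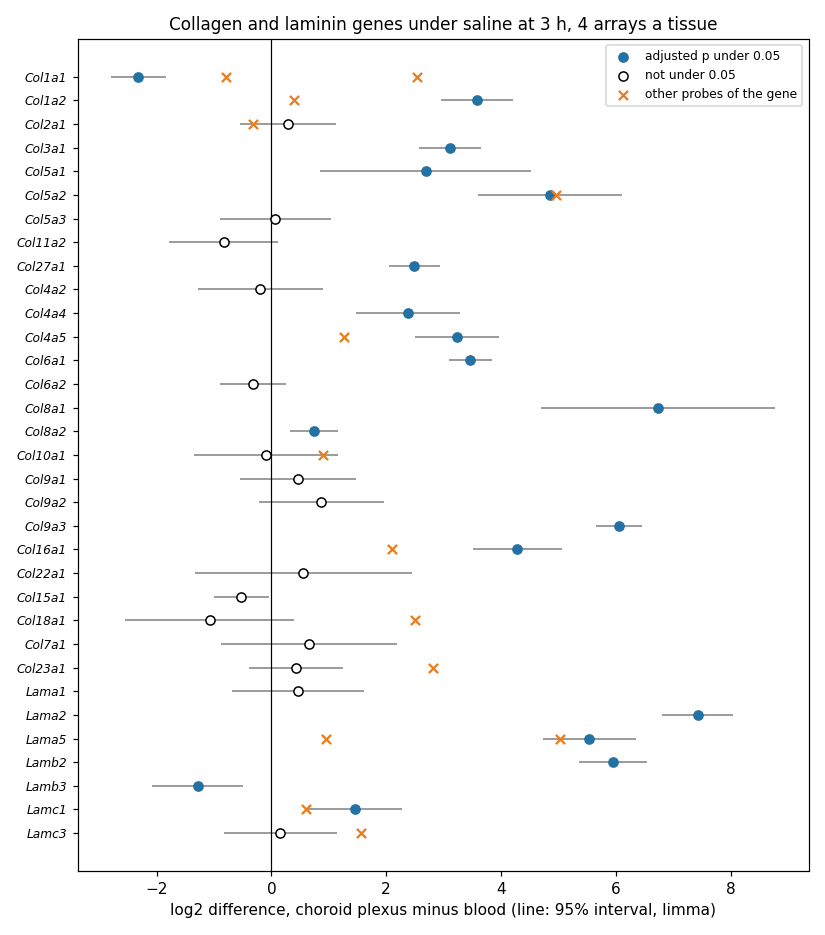
Difference in log2 intensity between choroid plexus and blood under saline at 3 h for each member tested (x axis; y axis: gene, in order of family), with the 95% interval of the limma fit as a line and the gene's other probes as crosses. Filled points passed an adjusted p under 0.05; Lama2 lies farthest right at 7.43, and the crosses of Col1a1 fall on both sides of 0.

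Genes that serve collagens and laminins were read from 4 lists. Of the synthesis and cross-linking list (chain-modifying enzymes, chaperones and oxidases), 15 of 23 tested were higher in choroid plexus and 3 lower. Of the matrix receptors 10 of 17 were higher and 4 lower, of the partner proteins 13 of 20 and 4, and of the proteases and inhibitors 12 of 24 and 4. Over all genes 31.9% were higher and 24.3% lower. The median differences of the lists lay between 1.12 and 2.28 log2, against 0.15 for all genes.

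The second question was what happened to these genes 3 h after hyperthermia or amphetamine. In choroid plexus, 0 of 34 members passed the test 3 h after EIH, and 3 had an unadjusted p under 0.05 in limma. Of all 10261 genes, 0.341% were called, 0.331% higher and 0.00975% lower, and 12.9% had an unadjusted p under 0.05. Between EIH and saline the pools did not overlap for 2 members in the higher direction and 3 in the lower, where 8.42% and 7.63% of all genes did so. The median difference was 0.16 log2 over the members and 0.01 over all genes.

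After AMPH at 3 h, again 0 of 34 members passed and 4 had an unadjusted p under 0.05. Here 0.156% of all genes were called, 0.136% higher and 0.0195% lower, and 15% had an unadjusted p under 0.05. The AMPH and saline pools did not overlap for 2 members in the higher direction and 4 in the lower, against 7.13% and 5.66% of all genes. The median difference was 0.01 log2 over the members and 0.03 over all genes. The EIH and AMPH comparisons share the same saline pools, so their values are given side by side and not as independent support.

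Lama2 had the smallest p among members in both comparisons. Its level was 12.08, 12.15, 12.36 and 12.62 in the saline pools, 11.45, 11.60, 11.64 and 11.38 after EIH, and 11.36, 11.66, 11.63 and 11.76 after AMPH. Every treated pool of 3 h lay below every saline pool. The differences were -0.78 ± 0.23 for EIH (SE, 95% interval -1.28 to -0.29, adjusted p = 0.162) and -0.70 ± 0.23 for AMPH (-1.19 to -0.20, adjusted p = 0.179). These fits share a spread with the 1 day pools, among them AMPH 1 day pool 2, whose Lama2 level was 10.75. With that pool left out, a setting chosen after the data were seen, Lama2 passed in both comparisons, with adjusted p of 0.0170 for EIH and 0.0268 for AMPH. With the 3 h pools alone the values were 0.0418 and 0.0493, and with array weights, which give pools that stand apart less say, 0.00531 and 0.00788. Another fit left out AMPH 1 day pool 2, EIH 1 day pool 1 and saline pool 4, which held the highest Lama2 level. There the differences were -0.68 and -0.59 and neither passed (limma adjusted p = 0.0556 and 0.0548). Over the 22 alternative settings of each comparison, Lama2 stayed without a call in 18, among them the fit of the compared groups alone. The highest limma adjusted p was 0.408 for EIH and 0.381 for AMPH. By 1 day Lama2 was at 11.81, 12.06, 12.35 and 11.99 in the EIH pools and 11.87, 10.75, 12.21 and 11.84 in the AMPH pools.

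None of the other laminin chains passed. Lamb2 differed from saline by 0.02 ± 0.11 after EIH and by -0.01 ± 0.11 after AMPH, with an adjusted p of 0.976 in each. Lama5 differed by -0.21 ± 0.36 and 0.16 ± 0.35, and Lamc1 by 0.28 ± 0.17 and 0.27 ± 0.17. Lama1, an alpha chain best known from the embryo, was dim in every group: its saline levels were 5.13, 5.35, 5.33 and 6.65. After AMPH they were 3.16, 4.55, 4.20 and 4.20, all below saline, with a difference of -1.59 ± 0.55 (adjusted p = 0.190). After EIH the difference was -0.74 with 1 blank pool.

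Col9a3, a chain of the fibril-associated collagen IX, read 11.10, 10.78, 10.92 and 10.79 under saline. It read 10.31, 10.12, 10.36 and 10.10 after EIH and 9.96, 10.30, 10.30 and 10.25 after AMPH, so that both treated groups lay wholly below saline. The differences were -0.68 ± 0.45 and -0.70 ± 0.45 (adjusted p = 0.562 and 0.501). In AMPH 1 day pool 2 Col9a3 was at 7.49, and with that pool alone left out the standard errors were 0.20 and neither comparison passed (adjusted p = 0.0817 and 0.0618). With the 3 h pools alone the standard errors were 0.12 and both comparisons passed (adjusted p = 0.0401 and 0.0358), as they did with array weights (0.0269 and 0.0259). With that pool and EIH 1 day pool 1 left out, AMPH passed (adjusted p = 0.0432) and EIH did not (0.0573). Without saline pool 4 as well, neither passed, nor did either with the compared groups alone. Over the 22 alternative settings, Col9a3 was without a call in 20 for EIH and in 19 for AMPH.

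Other members differed without overlap but with wide error. Col2a1, the cartilage collagen, was dim and differed by -1.14 ± 0.38 after EIH (adjusted p = 0.204) and by -1.01 ± 0.38 after AMPH, where the groups overlapped. With array weights the EIH difference was -1.36 and passed (adjusted p = 0.0316). The dimmer Col2a1 probe did not show the fall: it averaged 4.78 under saline, 4.78 after EIH and 5.59 after AMPH. Col16a1 differed by -0.64 ± 0.52 after AMPH, without overlap. With EIH 1 day pool 1 and AMPH 1 day pool 2 left out its adjusted p was 0.0406, and without saline pool 4 as well 0.0536. In the other direction, Col4a2 read 5.98, 5.83, 6.43 and 5.17 under saline and 6.60, 6.63, 6.52 and 7.12 after AMPH, a difference of 0.87 ± 0.31 (adjusted p = 0.197). After EIH Col4a2 differed by 0.83 ± 0.31, with overlap. Col10a1 and Col7a1 lay above saline after EIH, by 0.56 ± 0.42 and 0.60 ± 0.49, and Col5a2 after AMPH, by 0.24 ± 0.50.

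Neither the main fibrillar chains nor Col6a1 passed at 3 h. Col1a1 differed by -0.03 ± 0.95 after EIH and -0.45 ± 0.95 after AMPH, Col1a2 by -0.12 and -0.43, Col3a1 by 0.52 and -0.05, and Col6a1 by 0.43 and -0.04. The 95% intervals for Col1a1 ran from -2.04 to 1.98 and from -2.46 to 1.56, a width that includes the spread of the 1 day groups. With the 3 h pools alone the Col1a1 differences were -0.03 ± 0.28 and -0.45 ± 0.28 (limma adjusted p = 0.968 and 0.386), and none of these 4 chains passed there. The Col1a1 probe used was the brightest over both tissues, and another was brighter in choroid plexus. That probe averaged 11.07 under saline, 10.91 after EIH and 10.04 after AMPH, and the remaining one 8.11, 8.12 and 7.83. Within EIH at 3 h, pool 2 was the highest of the 4 in Col1a1 (9.77), Col1a2 (13.00), Col3a1 (11.34) and Col6a1 (9.48). Col15a1 and Col18a1 differed by 0.26 and 0.63 after EIH and by 0.02 and 0.26 after AMPH. Directly between AMPH and EIH at 3 h, 0 of 34 members passed, 1 had an unadjusted p under 0.05, and 0.00973% of all genes were called. The pools did not overlap for Col15a1 (-0.24 ± 0.22) and Col7a1 (-1.12 ± 0.45), both lower after AMPH, where 2.27% of all genes were lower and 2.53% higher without overlap.

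**Figure D2:**
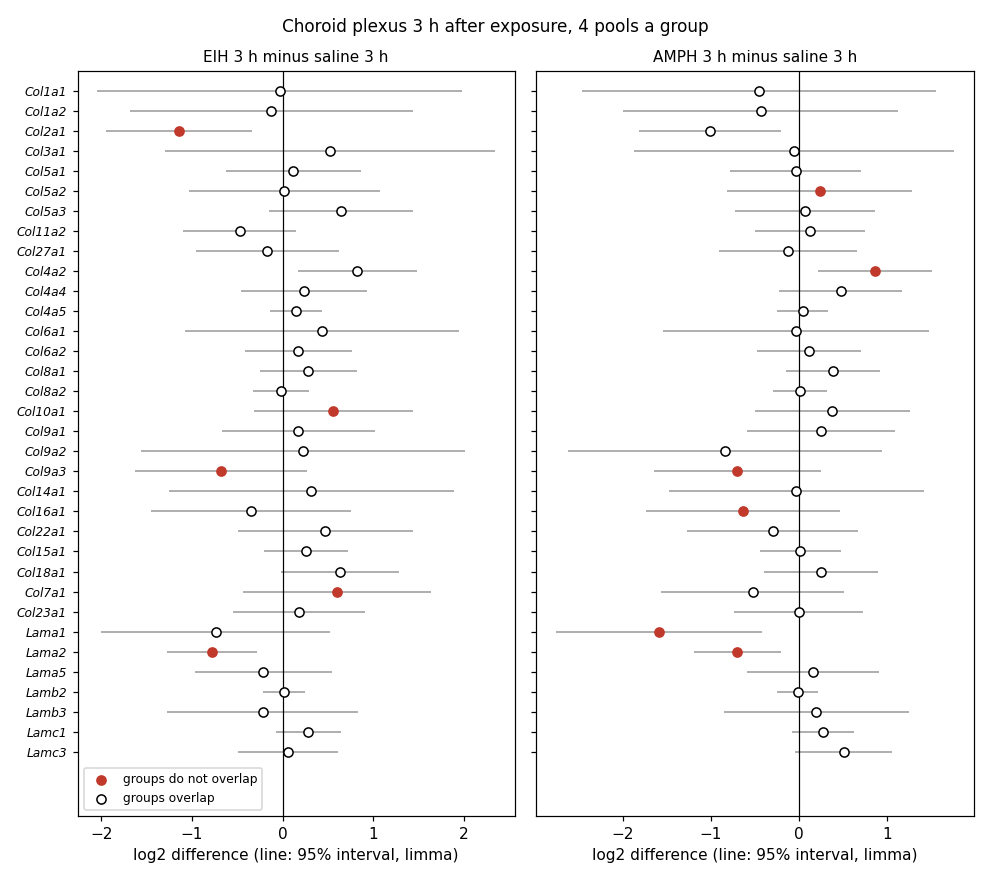
Log2 difference from saline for each member (y axis: gene) 3 h after EIH (left) and after AMPH (right), with the 95% limma interval as a line. Filled points mark genes whose 4 treated pools all lie beyond the 4 saline pools; Lama2 and Col9a3 are filled on the left of 0 in both panels, and no member passed the test.

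Genes needed to make and fold collagen did pass at 3 h. P4ha1, a subunit of the enzyme that hydroxylates prolines in collagen, read 8.93, 8.82, 8.78 and 8.31 under saline, 10.53, 10.83, 10.27 and 10.67 after EIH, and 10.79, 11.08, 10.87 and 9.62 after AMPH. It rose by 1.87 ± 0.33 after EIH (adjusted p = 0.0214) and by 1.88 ± 0.33 after AMPH (adjusted p = 0.0359). Serpinh1, the collagen chaperone Hsp47, which also belongs to the heat shock genes, rose by 1.91 ± 0.34 after EIH (adjusted p = 0.0218). After AMPH Serpinh1 differed by 1.48 ± 0.34 (adjusted p = 0.0767), without overlap. These were the only called genes of the 24 tested on the synthesis list, 2 after EIH and 1 after AMPH, and the next by t, the lysyl hydroxylase Plod1, differed by 0.89 and 0.87 (adjusted p = 0.198 and 0.181). None of the 17 receptors, 22 partner proteins and 26 proteases and inhibitors passed in either comparison. Their largest differences by t included the receptor Sdc4 (0.56 and 0.84), the laminin receptor Bcam (0.42 and 0.37) and the urokinase receptor Plaur (1.45 and 1.34). The microfibril protein Fbn1 differed by -0.70 after EIH. Its mean was 10.22 under saline, 9.52 after EIH and 9.55 after AMPH.

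The third comparison set the 1 day pools against saline at 3 h. Of 34 members, 0 passed after EIH at 1 day and 0 after AMPH at 1 day, with 6 and 8 at an unadjusted p under 0.05 in limma. Of all genes, 0% and 0.0294% were called, with 12.3% and 16.9% at an unadjusted p under 0.05. After EIH the groups did not overlap for 5 members in the higher direction (11.8% of all genes) and 2 in the lower (1.16%). After AMPH these were 4 (6.93%) and 1 (1.82%). The medians were 0.33 over the members and 0.17 over all genes for EIH, and 0.32 and 0.11 for AMPH. The members without overlap after EIH were Col6a1 (1.12 ± 0.72), Col7a1 (0.77), Col6a2 (0.75 ± 0.28), Col5a1 (0.73), Col5a2 (0.59), Col8a1 (-0.67 ± 0.25) and Lama1 (-1.28). After AMPH they were Col4a2 (1.07 ± 0.31), Col5a2 (0.98), Col6a2 (0.85 ± 0.28), Lamc1 (0.64 ± 0.17, adjusted p = 0.125) and Col9a3 (-1.38 ± 0.45). Between AMPH and EIH at 1 day, 0 members passed, 1 had an unadjusted p under 0.05, and none was without overlap, where 0% of all genes were called.

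The 1 day groups were held wide by a single pool in each. EIH 1 day pool 1 and AMPH 1 day pool 2 carried far more fibrillar collagen message than all other pools. Col1a1 read 13.08 in the first and 14.07 in the second, while the other 18 pools lay between 8.21 and 9.77. On a linear scale that is 17.9-fold and 35.6-fold the median of the other 18. Col1a2 read 15.54 and 15.66 against 11.56 to 13.00, which is 10.2-fold and 11.1-fold. These Col1a2 values are close to 16 log2, the top of the measured scale. Col3a1 read 13.19 and 14.66 against 9.66 to 11.34, and Col6a1 11.40 and 12.78 against 8.10 to 9.48.

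Both pools lay above all others for 10 of the 31 members with complete values, 32.3%, where 9.07% of all genes did so. The 2 pools were singled out after the member values had been seen, so these shares describe the pools and are no test. The shared set held fibrillar chains (Col1a1, Col1a2, Col3a1, Col5a1 and Col5a2), both collagen VI chains, Col4a2, and the fibril-associated Col9a2 and Col16a1. Col5a2 read 11.14 and 12.69 against 9.30 to 9.85. Col16a1 read 11.65 and 12.85 against 9.51 to 10.70, and Col9a2 read 9.98 and 10.58 against 5.82 to 8.90. Col14a1 and Col7a1, with 1 blank each among the other pools, also lay above them in both. All 3 Col1a1 probes and both Col1a2 probes put these 2 pools above the other 18. For the Col1a1 probe that was higher in choroid plexus than in blood, the values were 15.31 and 15.46 against 9.60 to 12.15.

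Laminin chains were not raised with them, apart from Lamb3 and Lamc1 in AMPH 1 day pool 2, at 7.28 and 6.75 against highs of 6.31 and 6.70 in the others. Lamb2 was at 11.50 and 11.43, inside the range of 11.22 to 11.71. Lama2 was at 11.81 in EIH 1 day pool 1, inside 11.36 to 12.62, and at 10.75 in AMPH 1 day pool 2, below it. Lama5 was at 10.97 and 9.39, both below the 11.07 to 12.01 of the others. A dim Lama5 probe put AMPH 1 day pool 2 inside their range, at 5.86 against 5.73 to 6.67. AMPH 1 day pool 2 was also below all others in Col9a3 (7.49 against 9.67 to 11.10), Col27a1 (7.81 against 9.50 to 10.41), Col10a1 (4.62), Col4a4 (6.24) and Col8a2 (7.28). In that pool 15 of 31 complete members were above the other 18 pools and 7 below, 48.4% and 22.6%, against 24.1% and 29.9% of all genes. In EIH 1 day pool 1 the counts were 11 above and 2 below, 35.5% and 6.45%, against 11.9% and 7.55%. As both pools were singled out with these values known, the shares are descriptions only. Col23a1, a membrane collagen, split the pair, at 5.14 in EIH 1 day pool 1 and 7.95 in AMPH 1 day pool 2 against 5.89 to 6.84.

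Promoters of members that went apart in these pools are printed for comparison, from 250 bases before to 50 after the transcript start, as given by RefSeq on GRCr8. Capitals mark, on either strand, the letters CCAAT, those of the core promoter box known as the TATA box, which were searched as TATAAA, and those of the GC box, searched as the hexamer GGGCGG. Col1a2 and Col6a1 were high in both pools, and Lama2 and Lama5 low in AMPH 1 day pool 2. Their windows are chr4:33518307-33518606 (plus strand), chr20:11905440-11905739 (plus strand), chr1:19491896-19492195 (plus strand) and chr3:187695925-187696224 (minus strand).
Col1a2: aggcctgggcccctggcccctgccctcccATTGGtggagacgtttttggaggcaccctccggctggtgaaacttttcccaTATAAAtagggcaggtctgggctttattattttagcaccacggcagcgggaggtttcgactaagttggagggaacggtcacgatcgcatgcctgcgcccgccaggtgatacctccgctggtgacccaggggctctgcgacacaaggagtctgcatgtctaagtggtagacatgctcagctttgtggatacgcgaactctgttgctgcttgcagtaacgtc
Col6a1: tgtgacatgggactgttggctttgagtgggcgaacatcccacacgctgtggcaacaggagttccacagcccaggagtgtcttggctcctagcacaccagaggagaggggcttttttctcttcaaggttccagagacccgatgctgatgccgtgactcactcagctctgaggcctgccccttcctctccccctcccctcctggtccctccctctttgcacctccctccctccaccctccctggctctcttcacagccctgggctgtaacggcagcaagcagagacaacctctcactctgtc
Lama2: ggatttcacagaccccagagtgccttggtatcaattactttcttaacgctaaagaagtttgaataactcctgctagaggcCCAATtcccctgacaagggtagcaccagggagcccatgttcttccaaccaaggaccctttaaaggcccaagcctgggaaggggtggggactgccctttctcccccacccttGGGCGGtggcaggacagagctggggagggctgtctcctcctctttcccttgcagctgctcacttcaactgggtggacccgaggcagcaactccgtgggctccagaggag
Lama5: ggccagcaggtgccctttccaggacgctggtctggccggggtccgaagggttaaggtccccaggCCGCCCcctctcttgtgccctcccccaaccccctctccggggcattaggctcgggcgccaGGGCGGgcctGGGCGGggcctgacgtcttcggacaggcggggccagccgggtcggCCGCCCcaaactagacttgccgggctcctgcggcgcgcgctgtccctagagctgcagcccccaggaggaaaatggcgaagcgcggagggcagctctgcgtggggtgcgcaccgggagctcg
The Col1a2 window holds 1 CCAAT box and 1 TATA box and no GC box, the Lama2 window 1 CCAAT box and 1 GC box, the Lama5 window 4 GC boxes, and the Col6a1 window none of these letters. Promoters were matched for 26 of the 34 members. A CCAAT box was present in 7 of them (26.9%, against 37.7% of 27457 promoters), a TATA box in 2 (7.69% against 14.3%) and a GC box in 16 (61.5% against 34.9%). Not matched were Col1a1, Col2a1, Col3a1, Col6a2, Col9a3, Col14a1, Col22a1 and Lamb2.

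Markers of other cells moved in the same pools. The stroma and meninges list (10 of 11 genes measured) averaged 12.0 in EIH 1 day pool 1 and 13.1 in AMPH 1 day pool 2, against 10.6 to 11.5 in the other 18. Of its 10 genes, 7 lay above the other 18 pools in both. Among these Dcn and Lum, proteoglycans of fibroblasts, were at 13.61 and 10.36 in the first pool and 15.00 and 11.61 in the second. Pdgfra (11.20 and 11.82), Fmod (15.01 and 15.31) and Slc6a13 (5.92 and 8.74) lay inside the range of the others. The epithelial list (14 genes) averaged 13.0 in EIH 1 day pool 1, inside the 13.0 to 13.2 of the others, but 10.7 in AMPH 1 day pool 2. That pool also had lower ependymal markers, at 8.18 against 9.77 to 10.9. Its erythroid (9.77), platelet (10.2), neutrophil (8.72), macrophage (10.1), mural (9.77) and endothelial (8.43) lists were above all other pools. In EIH 1 day pool 1 the erythroid list (8.10), the platelet list (8.11) and, marginally, the macrophage (8.79) and T cell (6.35) lists exceeded the others. The part of these cells in the collagen levels was not tested.

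Outside these pools the main fibrillar chains of the 1 day groups stood near saline. The other 3 EIH pools averaged 9.22 ± 0.11 (SD) for Col1a1 and 12.38 ± 0.13 for Col1a2. These means lay 0.28 and 0.10 log2 above the saline mean. By their titles these 3 EIH pools share rat numbers with each other, so their SD may not be a spread over separate animals. The other 3 AMPH pools averaged 9.25 ± 0.47 and 12.24 ± 0.49, or 0.31 above and 0.05 below it. Col3a1 stood 0.19 and 0.11 above saline, and Lama5 0.14 and 0.01 below. Other members lay farther off: 10 of 34 in the EIH pools and 9 of 34 in the AMPH pools were over 0.5 log2 from the saline mean. They included Col22a1 (1.07), Lama1 (-1.02), Col4a2 (0.75) and Col8a1 (-0.68) in EIH. In AMPH they included Col4a2 (0.92), Col7a1 (-0.92), Col4a4 (0.83) and Col9a3 (-0.70). Leaving out any single pool of the compared groups left 0 members called in each 1 day comparison.

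**Figure D3:**
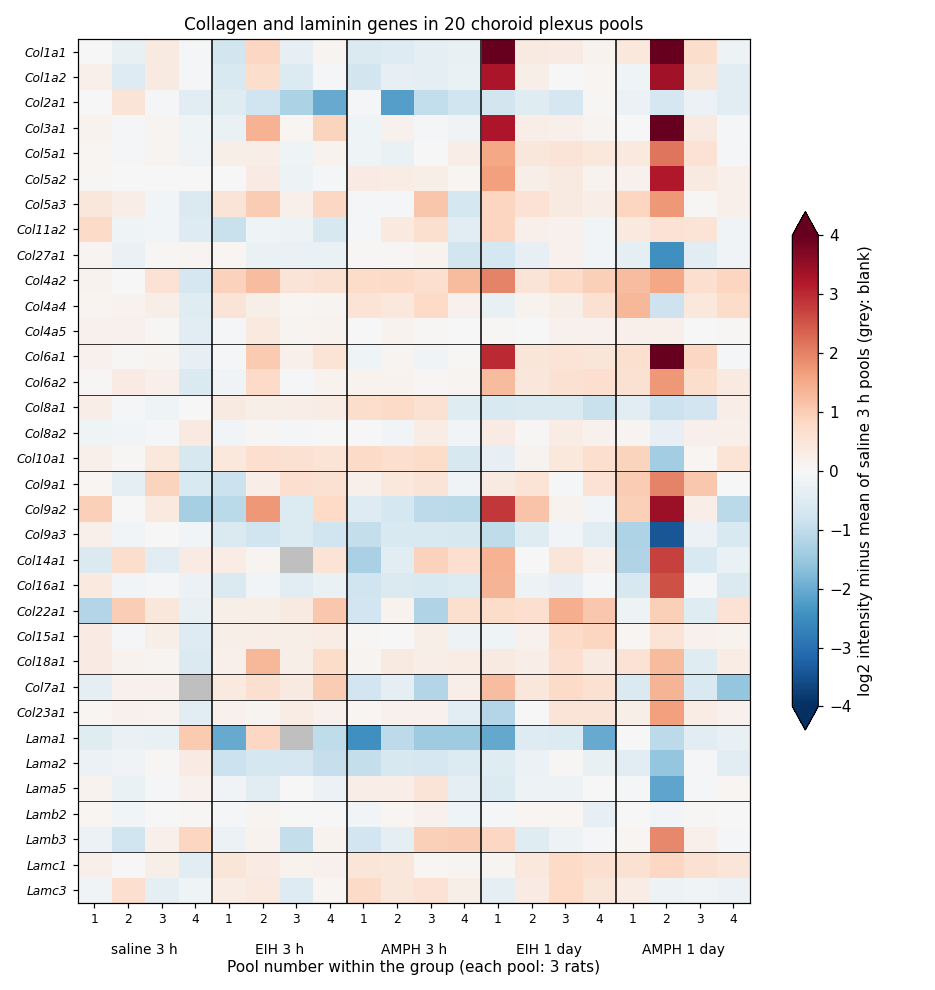
Log2 intensity of each member (rows, grouped by family) in each of the 20 choroid plexus pools (columns, by group), shown as the difference from the mean of the saline pools on a colour scale that saturates at 4 log2. EIH 1 day pool 1 and AMPH 1 day pool 2 are dark red for Col1a1, Col1a2, Col3a1 and Col6a1, and AMPH 1 day pool 2 is blue for Col9a3, Col27a1 and Lama5.

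Some of these collagens also varied together among the remaining pools. Over the 18 other pools, with each group's mean removed, the deviations of Col1a2 correlated with those of Col1a1 at r = 0.917, Col3a1 at 0.816 and Col6a1 at 0.805. Only 7 of 8814 genes with complete values exceeded 0.8, namely these 3 members and Vwf, Mustn1, Gng11 and Vim, which were named after the values were seen. The median r was 0.251 over 30 members and -0.00468 over all genes. Other fibrillar chains ranged from 0.579 for Col5a1 and 0.54 for Col5a2 to -0.184 for Col2a1 and -0.228 for Col27a1. Lama2 stood at 0.335, Col9a3 at 0.179, Lama5 at -0.252 and Col8a1 at -0.351. These are descriptions over pools that share a tissue dissection, array run and scaling, and some share rat numbers.

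**Figure D4:**
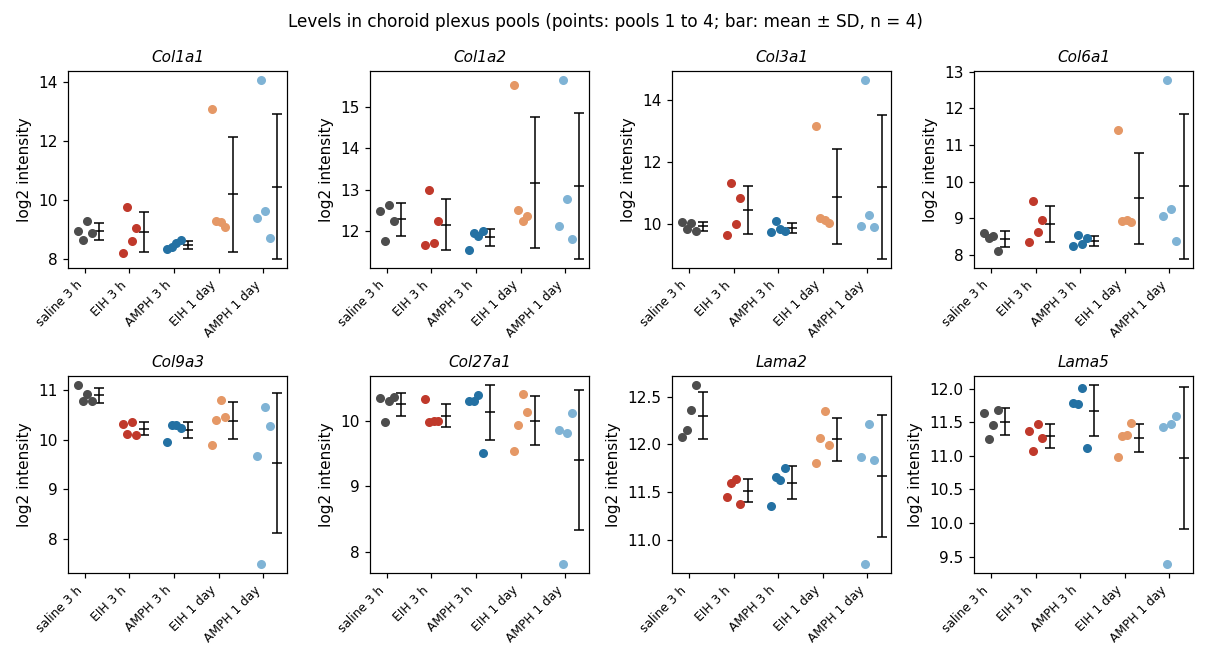
Log2 intensity (y axes) of 8 members in the choroid plexus pools of each group (x axes), one point per pool, with the mean and SD of 4 pools as a bar beside them. One pool at 1 day in each treatment stands above 13 for Col1a1, and the 3 h pools of Lama2 and Col9a3 lie below saline.

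In blood, the same genes were compared with saline of the same time. After EIH at 3 h, 1 of 32 members rose and 0 fell, where 5.63% of all genes were called higher and 7% lower. After AMPH at 3 h, 2 of 32 rose and 0 fell, against 5.08% and 3.6% of all genes, 8.68% in all. Col9a2, a fibril-associated collagen IX chain, read 6.79, 5.94, 6.12 and 6.30 under saline, 7.12, 7.90, 7.65 and 7.56 after EIH, and 7.24, 8.19, 7.48 and 7.54 after AMPH. All treated rats were above all saline rats. It rose by 1.27 ± 0.34 after EIH (limma adjusted p = 0.0158) and by 1.33 ± 0.34 after AMPH (adjusted p = 0.0182). The AMPH call was lost when saline rat 2, saline rat 3 or AMPH rat 2 was left out, each leaving 1 member called. Col6a2 read 6.50, 6.70, 7.07 and 6.30 under saline and 8.32, 7.82, 8.28 and 8.15 after AMPH, a rise of 1.504 ± 0.32 (adjusted p = 0.00660). After EIH it differed by 0.27, with overlap.

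Against these counts, the groups did not overlap for 4 members in the higher direction and 1 in the lower after EIH (12.1% and 13% of all genes), and for 5 and 0 after AMPH (11.2% and 10.2%). Col1a1 in blood depended on the probe again. Its brightest probe read 10.83, 11.44, 11.29 and 11.47 under saline and 12.50, 12.38, 12.70 and 13.09 after EIH, without overlap, a difference of 1.41 ± 0.50 (adjusted p = 0.0687). After AMPH it differed by 1.15 ± 0.50 (adjusted p = 0.171), also without overlap. A second probe differed by 1.43 ± 0.32 and 1.16 ± 0.32 and passed in both comparisons (limma adjusted p over all probes = 0.00609 and 0.0344), while the probe that was higher in choroid plexus differed by 0.14 and 0.63 and did not pass. Col9a1 lay above saline without overlap after both exposures, by 1.67 ± 1.05 and 2.15 ± 1.05. After EIH, Col15a1 (0.30 ± 0.41) and Col11a2 (-2.03 ± 0.74, adjusted p = 0.0810) were also without overlap, and after AMPH Col6a1 was (1.33 ± 0.61).

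Among the genes that serve the matrix, 3 of 23 tested on the synthesis list rose in blood after EIH and 2 of 23 after AMPH. P4ha1 rose by 2.21 ± 0.48 and 2.02 ± 0.48, as it had in choroid plexus, and Serpinh1 by 1.37 ± 0.40 after EIH (adjusted p = 0.0266). Of the proteases and inhibitors 6 of 24 rose after each exposure and 0 fell. Over all genes 5.63% rose and 7% fell after EIH, and 5.08% and 3.6% after AMPH. The proteases and inhibitors included the gelatinase Mmp9 (3.28 ± 0.69 and 3.30 ± 0.69), the neutrophil collagenase Mmp8 (2.71 and 2.59), the inhibitor Timp1 (1.28 and 1.44) and Plaur (3.13 and 2.37). Of the 17 matrix receptors tested, 1 rose and 1 fell after EIH, and 3 rose and 1 fell after AMPH. The receptor that fell was Dag1, which encodes the laminin receptor dystroglycan, with fitted differences of -1.57 ± 0.24 and -1.11 ± 0.24. Of the partner proteins, 1 of 20 rose after EIH and 0 of 19 after AMPH, and 0 fell. The AMPH and EIH comparisons share the saline rats.

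White cell markers changed in the same samples. At 3 h, 3 of 6 neutrophil markers rose and 4 of 4 tested T cell markers fell after each exposure. The neutrophil list averaged 10.96 to 11.63 under saline, 12.0 to 13.0 after EIH and 12.6 to 13.2 after AMPH. The mean of the stroma list over genes with a value stayed between 6.84 and 8.35 in these groups. Of its 9 genes tested singly, 1 rose and 0 fell after each exposure. The part of either in the collagen values was not tested.

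At 1 day in blood, 0 of 33 members passed after EIH, with 6 at an unadjusted p under 0.05, and 0.082% of all genes were called, 0.0512% higher and 0.0307% lower. The groups did not overlap for 0 members in the higher direction and 2 in the lower, against 3.81% and 3.94% of all genes. These were Col1a1, at -1.17 ± 0.50 (adjusted p = 0.434), and Col14a1, at -2.27 ± 0.80 with 2 and 3 values (adjusted p = 0.406). The Col1a1 value is that of the brightest probe. Its other probes averaged 8.51 and 10.05 under saline and 9.19 and 9.99 after EIH. After AMPH 0 of 34 rose and 1 fell, where 1.64% of all genes were called higher and 0.439% lower. This was Col9a2, at 4.38, 5.55, 4.12 and 4.34 after AMPH against 7.07, 7.60 and 7.67 in the 3 saline rats with a value. It fell by 2.85 log2 (fitted difference -2.85 ± 0.36, adjusted p = 0.00199). The call was lost when only the compared groups were fitted. Saline rats of 1 day themselves stood above saline of 3 h in Col9a2, by 1.16 ± 0.36 (adjusted p = 0.135), a comparison that mixes time with the scaling of the arrays. In it 0 of 33 members passed, 3 had an unadjusted p under 0.05, and 0.598% of all genes were called.

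**Figure D5:**
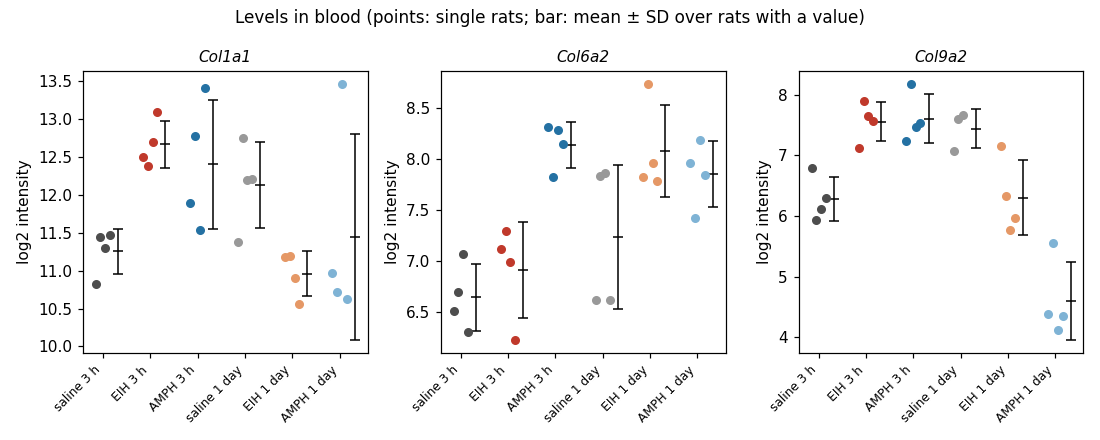
Log2 intensity (y axes) of Col1a1 (brightest probe), Col6a2 and Col9a2 in blood of single rats by group (x axes), with the mean and SD over rats with a value as a bar. Col9a2 lies above saline 3 h in all 8 treated rats of 3 h, and below saline 1 day in all AMPH rats of 1 day.

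The treatment effects in both tissues were compared with each other at 3 h. The EIH effect on Lama2 was lower in choroid plexus than in blood by 2.30 log2 (fitted difference -2.30 ± 0.68, adjusted p = 0.0340), the only 1 of 32 members called, where 2.28% of all genes were called lower and 3.85% higher. Lama2 in blood was dim and uneven, at 7.68, 5.42, 5.06 and 7.41 after EIH and 5.33, 5.17, 4.76 and 4.21 under saline. The Lama2 call was lost in 10 of the 16 settings that left out 1 sample: saline pools 3 and 4, EIH pools 1, 2, 3 and 4, saline rats 3 and 4, and EIH rats 1 and 4. Its adjusted p there lay between 0.0502 and 0.0879. For AMPH 0 of 32 members differed between the tissues, 2 had an unadjusted p under 0.05, and 3.15% of all genes were called.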

How the data were processed

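Values were the deposited intensity of each array probe on a linear scale, as the authors gave them in the series value table. For background correction and normalization, the method is not given in the sources used here. Array medians were 139 to 146 for the 24 arrays of 3 h and 165 to 171 for the 20 of 1 day, and levels are compared across these sets only where stated. RNA was labelled with Cy3 by the Quick Amp method, per the labels' protocols. Of 14055 probes, 12926 had 1 gene symbol, 0 several and 1129 none. Blank values (3.05% in choroid plexus, 8.57% in blood) were kept missing.

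Intensities were floored at 1 and turned to log2, and each gene was read from its brightest probe by the mean over 44 arrays. Group means were fitted with limma 3.58.1 in R 4.3.3 over the 20 choroid plexus arrays, the 24 blood arrays, the saline arrays of 3 h, or all arrays for differences between tissues. Moderated p-values were Benjamini-Hochberg adjusted over all genes with at least 2 values in each compared group, and a call needed an adjusted p under 0.05. Scripts were tested on simulated data. Named in each comparison were called members, otherwise up to 6 in each direction whose groups did not overlap, a fixed set of main chains, and from each list the called genes or up to 3 by moderated t. The members and lists were chosen with earlier results of these data known. The p-values measure the spread between pools or rats as labelled, some of which share rat numbers, and few arrays per group limit the precision. Alternatives covered array weights, an added constant, a filter on dim genes, other scalings, probe means, the samples fitted, shared rats and leaving out each sample. Meninges samples were not analysed here.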

Additional observations from a re-analysis of the deposited data

Results flagged for a closer look

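Of 167 groups of 4 values looked at, 25 held a pool far from the other 3 by Dixon's test, or 15%, where chance gives about 1 in 20 for a single group. The groups come from the same pools and are not independent, and the share over all genes was not taken. Over all genes, AMPH 1 day pool 2 lay above the other 18 pools in 24.1% and below them in 29.9%, so the excess is not particular to the members. AMPH 1 day pool 2 held 8 of them: Col1a1 (14.07), Col3a1 (14.66), Col5a2 (12.69), Col23a1 (7.95) and Lamb3 (7.28) above the other AMPH pools, and Col27a1 (7.81), Col8a2 (7.28) and Lama5 (9.39) below. EIH 1 day pool 1 held 7, all above the other EIH pools: Col1a1 (13.08), Col1a2 (15.54), Col3a1 (13.19), Col5a1 (9.55), Col5a2 (11.14), Col6a1 (11.40) and Col16a1 (11.65).

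The other 10 were spread over 7 pools. Saline pool 4 was low in Col4a4 (6.58) and high in Lama1 (6.65), and saline pool 2 was low in Col27a1 (9.98). At 3 h, EIH pool 4 was high in Col22a1 (7.38) and EIH pool 1 in Col27a1 (10.34). AMPH 3 h pool 4 was low in Col10a1 (5.35), Col27a1 (9.50) and Col8a1 (11.74). At 1 day, EIH pool 4 was low in Col8a1 (11.31) and AMPH pool 1 high in Lamc3 (5.64).

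The EIH effect at 3 h differed between choroid plexus and blood for Lama2, with a fitted difference of -2.30 ± 0.68 log2 (limma adjusted p = 0.0340).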

How the results depend on the processing

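Of 289 member counts under an alternative, 248 stayed within 1.5 times the reported count and 41 did not. Of 1195 values of single members, 0 reversed, 19 lost a call and 22 gained one. The members followed singly were those called or without overlap in the main fit. Where groups do not overlap, leaving out a sample cannot change the direction, so the count of reversals says little. A switch to another single probe was not among the settings, and between tissues Col1a1 and Col18a1 changed direction with the probe. The settings that left out named pools or fitted the 3 h pools alone were chosen after seeing the data. In choroid plexus at 3 h, array weights called 3 members for EIH and 2 for AMPH, leaving out AMPH 1 day pool 2 called 1 and 1, leaving out EIH 1 day pool 1 too called 1 and 3, and the 3 h pools alone called 2 and 2. In blood, array weights called 3 for EIH at 3 h and 2 for AMPH at 1 day, and the compared groups alone called 2 and 0.

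For the EIH difference between tissues, the compared groups alone called 3, leaving out pools with recurring rats 0, leaving out AMPH 1 day pool 2 called 2, leaving out that pool with EIH 1 day pool 1 and saline pool 4 called 0, and a random block for shared rats 2. For AMPH these settings called 2, 2, 1, 2 and 1. An added 32, dropping the dimmest 25% of genes, array weights, and leaving out both odd 1 day pools each called 1. Why these counts moved was not tested.

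Leaving out each sample in turn gave 17 to 19 calls between tissues, 1 to 2 in blood for EIH and for AMPH at 3 h, 1 to 1 for AMPH at 1 day, 0 to 2 for the EIH difference between tissues, 0 to 1 for that of AMPH, and 0 to 0 elsewhere. The EIH blood count was 2 without EIH rat 3, and the AMPH difference count was 1 without saline pool 4. Leaving out recurring rats gave no value for EIH at 1 day, with 1 pool left. No paired analysis was possible because the labels carry no replicate numbers, and the rat numbers tie several blood rats to 1 pool rather than sample to sample; they entered as the random block. Dim members, many near 5 log2, are the least certain.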
